A study of Homo sapiens with 6 samples.

Results

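AP-1 is a transcription factor built from pairs of Fos, Jun and ATF proteins. Several of its subunit genes, though not all, belong with EGR1 and IER3 to the genes that cells switch on first when they meet a growth factor or a stress. The report describes 10 AP-1 and early-response genes: FOS, FOSB, FOSL1 and FOSL2 (Fos subunits), JUN, JUNB and JUND (Jun subunits), ATF3 (an ATF subunit), EGR1 and IER3 (2 other early-response genes). They were taken by name, as every array probe whose gene name equals a member, which gave 14 of the 58201 non-control probes on the array and 10 of its 43317 gene names. ATF3 had 4 probes, IER3 had 2, and every other gene had 1. Each probe had 1 spot per array, all 14 were marked well above background on all 6 arrays, and all 14 were tested.

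The arrays measured RNA of BT474, a breast cancer cell line that is positive for the estrogen receptor and for HER2. There were 3 groups of 2 arrays each: Control cells (called MOCK in the labels), which carried an empty pcDNA3.1 plasmid, BT474-Var1 cells, which carried pcDNA3.1 with variant 1 of the long noncoding RNA NR2F1-AS1, the long form, and BT474-Var4 cells, which carried variant 4, the short form. The methods put variant 4 in a plasmid that also encodes eGFP and variant 1 in one with hygromycin resistance, and the sources used here do not say which empty plasmid was put into the Control cells hybridized here. The study describes few survivors among the cells given either variant, from which colonies grew out, so BT474-Var1 and BT474-Var4 are outgrown populations, which it does not say of Control. It does say that control cells, like the variants, went through antibiotic selection and were afterwards grown without antibiotic. Cells of every group were grown in medium with the same percentage of fetal bovine serum. Nothing in the labels says that replicates A and B came from separate cultures. The p-values therefore measure only the spread between these arrays, which may be technical.

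Fos proteins do not pair with each other but with a Jun protein, while Jun proteins can also pair among themselves, and the pair binds the short DNA site TGACTCA, known as the TRE. Pairs that include an ATF protein favor the related sites TGACGTCA, the CRE, and TGACATCA. Transcripts of this class are usually short-lived, and several of the genes are controlled by serum response factor (SRF) at a DNA element called the CArG box or by AP-1 and ATF factors themselves. In epithelial cells, Fos and Jun genes are known as responders to mitogens, to stress signaling through MAP kinases and to the handling of the cells.

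The DNA just upstream of the start of transcription was read for the members from RefSeq (build GRCh38.p14). The table held 8 of the 10 members, with 2 starts for ATF3, and FOSL1 and IER3 are named only. In the 250 bases before each start, 6 kinds of site were searched on both strands: TGACTCA (TRE), TGACGTCA (CRE), TGACATCA, the EGR sites GCGTGGGCG and GCGGGGGCG, the CArG box and the TATA box TATAAA. The upstream stretches of FOS, JUN, JUND, EGR1 and the first start of ATF3 are shown. Those of FOSB, FOSL2, JUNB and the second start of ATF3 were searched as well but are not shown. Every match other than TATAAA lies in the stretches shown, so these do not stand for all members that differed. JUNB and FOSB, which differed too, held TATAAA alone. The stretches shown are printed 5′ to 3′ on the strand of the gene, with the matches in capitals, and no matches overlapped.
FOS, chr14:75278578-75278827, plus strand: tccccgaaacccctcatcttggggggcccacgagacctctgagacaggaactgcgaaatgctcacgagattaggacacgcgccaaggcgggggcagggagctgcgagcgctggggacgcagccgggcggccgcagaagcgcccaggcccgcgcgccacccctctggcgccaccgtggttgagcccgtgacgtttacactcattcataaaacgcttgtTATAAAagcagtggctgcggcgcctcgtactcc
JUN, chr1:58784048-58784297, minus strand: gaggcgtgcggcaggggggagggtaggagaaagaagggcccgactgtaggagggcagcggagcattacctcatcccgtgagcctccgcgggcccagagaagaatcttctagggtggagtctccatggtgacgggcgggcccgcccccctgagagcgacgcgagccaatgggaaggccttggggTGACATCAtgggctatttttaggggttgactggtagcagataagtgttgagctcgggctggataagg
JUND, chr19:18281623-18281872, minus strand: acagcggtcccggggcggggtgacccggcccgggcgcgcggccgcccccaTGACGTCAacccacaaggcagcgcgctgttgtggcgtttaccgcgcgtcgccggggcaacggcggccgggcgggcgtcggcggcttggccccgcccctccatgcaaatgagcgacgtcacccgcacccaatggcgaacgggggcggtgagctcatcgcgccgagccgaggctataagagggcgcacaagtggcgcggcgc
ATF3, chr1:212565157-212565406, plus strand: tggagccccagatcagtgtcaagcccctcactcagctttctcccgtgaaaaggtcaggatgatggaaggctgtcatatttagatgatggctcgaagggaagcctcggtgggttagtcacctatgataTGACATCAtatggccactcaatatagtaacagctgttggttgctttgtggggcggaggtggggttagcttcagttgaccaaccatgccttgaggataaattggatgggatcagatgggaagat
EGR1, chr5:138465229-138465478, plus strand: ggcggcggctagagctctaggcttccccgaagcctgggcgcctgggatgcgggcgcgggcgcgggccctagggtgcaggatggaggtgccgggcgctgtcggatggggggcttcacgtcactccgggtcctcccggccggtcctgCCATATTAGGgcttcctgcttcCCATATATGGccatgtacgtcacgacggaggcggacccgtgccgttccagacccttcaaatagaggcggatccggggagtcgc
TGACATCA stood at -67 to -60 from the start of JUN and at -123 to -116 from the first start of ATF3, where -1 is the last base before the start. It was found in 2.37% of the 35116 promoters in the table. TGACGTCA stood at -200 to -193 in JUND and was held by 1.65% of all promoters. EGR1 had 2 CArG boxes, at -105 to -96 and at -83 to -74, and 1.16% of all promoters held any. TATAAA was found at -33 to -28 before FOS, at -30 to -25 before FOSB and at -31 to -26 before JUNB. Before the second start of ATF3 it lay farther off, at -230 to -225. Of all promoters, 10.7% held it anywhere in the window. No TGACTCA and no EGR site lay in these windows, which 4.2% and 5.37% of all promoters held. Sequence farther upstream than 250 bases was not searched. A gene without a match here, such as FOS for the CArG box, may still hold one outside the window. A match is a string of letters and not a measured binding site.

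The values below are log2 intensities relative to the 75th percentile of the same array, so a probe at 0 is as bright as that percentile. Levels are compared only between arrays for the same probe, because the brightness of different probes is not on a common scale. Of the 14 member probes, 9 probes of 7 genes were higher and 0 lower in BT474-Var1 cells against Control at an adjusted p under 0.05 (limma, Benjamini-Hochberg adjustment over the 31857 tested probes). Over all tested probes, 14.1% were called higher and 20.3% lower in that comparison. In BT474-Var4 against Control cells, 8 probes of 6 genes were higher and 0 lower, where 9.87% of all tested probes were called higher and 14.3% lower. Between the variants, 7 probes of 5 genes were lower in BT474-Var4 than BT474-Var1 cells and 0 were higher, beside 20.7% called lower and 20.4% called higher over all tested probes. At an unadjusted p under 0.05, 11 member probes were higher and 0 lower in BT474-Var1 cells, 8 higher and 1 lower in BT474-Var4 cells, and 0 higher and 8 lower between the variants. The shares over all tested probes at that unadjusted threshold were 19.3% higher and 27% lower, 15.3% higher and 24.8% lower, and 25.1% higher and 26.6% lower. The median log2 fold change of the 14 probes was 0.86, 0.58 and -0.32 in these 3 comparisons, against -0.04, -0.08 and -0.03 over all tested probes. The comparisons with Control share its 2 arrays. With no filter on dim probes, the calls of FOSB in BT474-Var1 cells, of FOSB, JUN, JUNB and EGR1 in BT474-Var4 cells and all calls between the variants but that of JUND were lost, with adjusted p from 0.0541 to 0.122.

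A change of 2-fold or more was reached by 5 member probes in BT474-Var1 cells, those of FOS and JUN and 3 of ATF3. It was reached by 3 in BT474-Var4 cells, those of FOS and FOSB and 1 of ATF3. None of the 14 reached it between the variants (0 probes by limma, with 8 at an unadjusted p under 0.05). Over all tested probes, the shares were 2.78% higher in BT474-Var1 cells, 1.6% higher in BT474-Var4 cells and 4.6% lower in BT474-Var4 than BT474-Var1 cells.

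**Figure D1:**
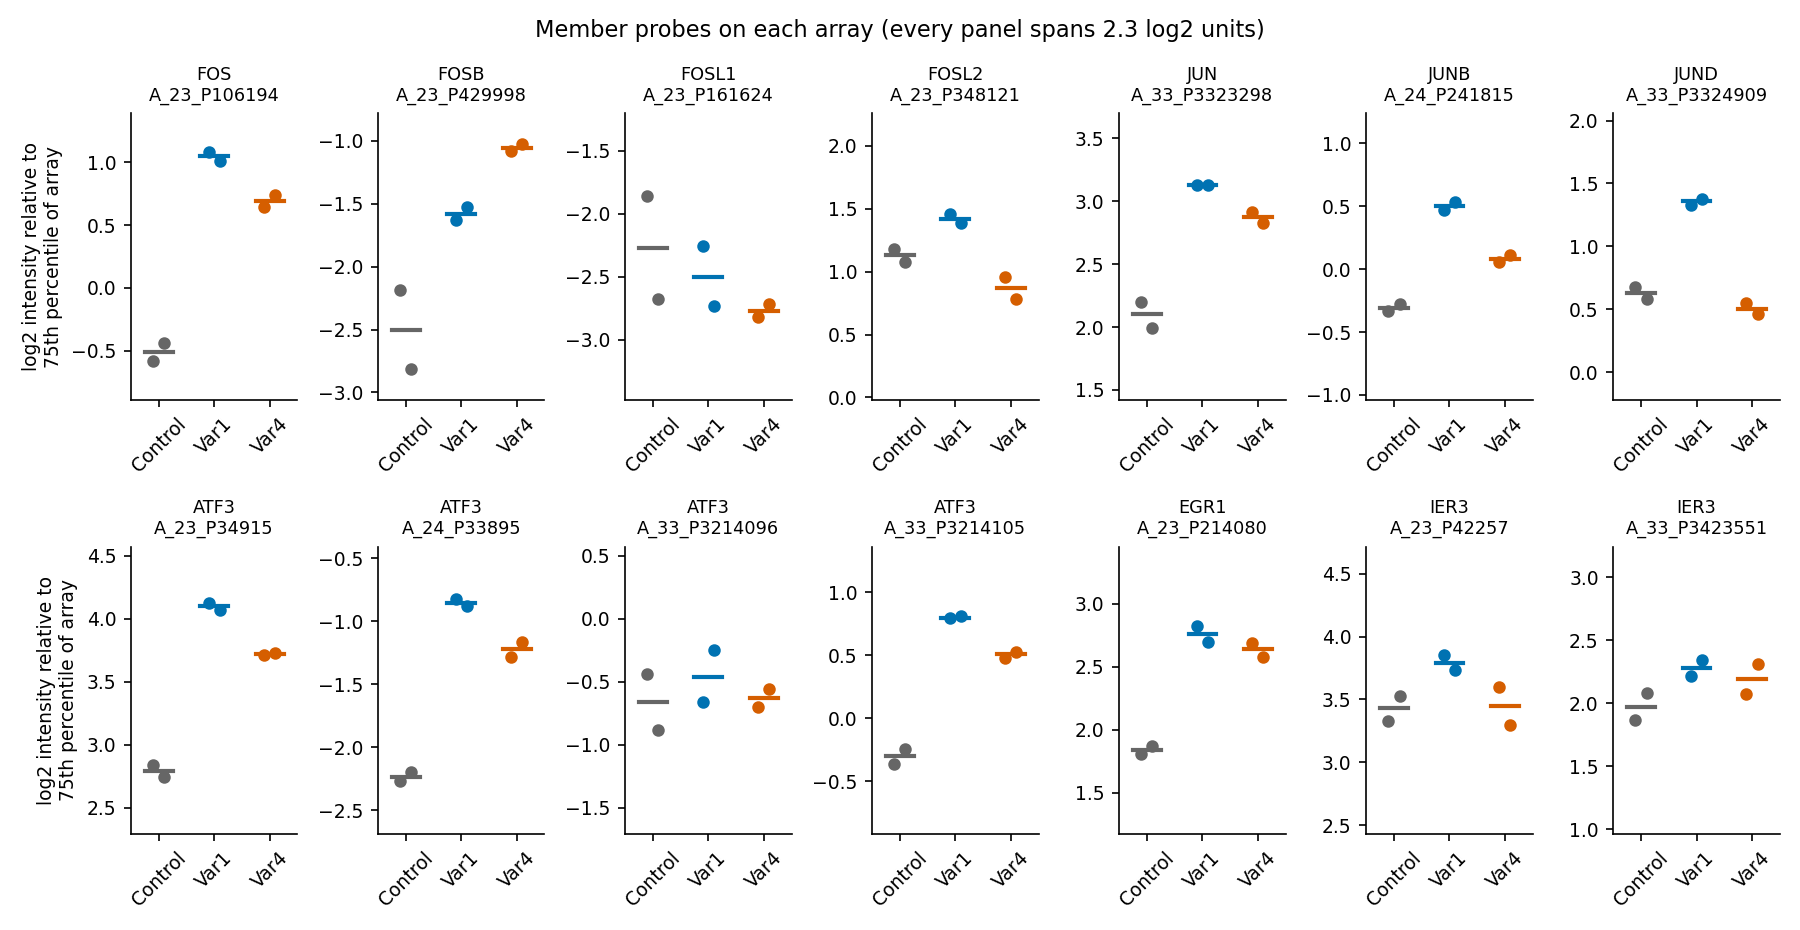
Log2 intensity relative to the array's 75th percentile (vertical axis) for each of the 14 member probes, with a point per array and a bar at the mean of the 2 arrays of a group. Every panel spans the same range of log2 units but starts at its own level. FOS, for example, stood at -0.58 and -0.44 in Control, 1.08 and 1.01 in BT474-Var1 and 0.64 and 0.74 in BT474-Var4 cells.

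Among the Fos subunits, FOS, the founding member whose protein pairs with Jun, was read by a probe at chr14:75748214-75748273 (hg19). Its values were -0.58 and -0.44 in Control, 1.08 and 1.01 in BT474-Var1 and 0.64 and 0.74 in BT474-Var4 cells. The 3 groups did not overlap, with Control lowest and BT474-Var1 highest. FOS exceeded Control 2.94-fold in BT474-Var1 cells (1.55 on the log2 scale, SE 0.08, adjusted p = 0.0029) and 2.3-fold higher in BT474-Var4 cells (1.20, SE 0.08, adjusted p = 0.00388). It was lower in BT474-Var4 than BT474-Var1 cells by a smaller amount (log2 fold change -0.35, SE 0.08, adjusted p = 0.0246). That last call was lost without either array of either variant, with adjusted p from 0.0592 to 0.0993, and by analysis of variance (0.0553).

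FOSB, a Fos paralog with a strong transactivation domain, was read at chr19:45978205-45978264 (hg19). Its values were -2.19 and -2.81 in Control, -1.63 and -1.53 in BT474-Var1 and -1.08 and -1.03 in BT474-Var4 cells. It differed from FOS in its order, with BT474-Var4 cells at the top, and the Control arrays lay farther apart from each other than those of either variant. FOSB was 1.89-fold higher in BT474-Var1 cells (log2 fold change 0.92, SE 0.21, adjusted p = 0.0337) and 2.73-fold higher in BT474-Var4 cells (1.45, SE 0.21, adjusted p = 0.0162). The difference between the variants, 0.53 with a 95% interval from -0.04 to 1.1, did not pass (adjusted p = 0.115), though it did in 5 of the 16 fits. These 5 include the fits without either Control array and that of the groups compared alone, which are the same fit for this comparison. The rise in BT474-Var1 cells failed without either BT474-Var1 array. It also failed with the groups compared alone, a replicate block or the analysis of variance (adjusted p = 0.0674, 0.0583 and 0.0983). Leaving out either BT474-Var4 array is here the same fit as the groups compared alone. The rise in BT474-Var4 cells failed without either BT474-Var4 array, with adjusted p of 0.068 and 0.0754, and by analysis of variance (0.0583). Background correction by normexp reduced the log2 fold changes to 0.27 and 0.48, with adjusted p of 0.0065 and 0.00041.

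The 2 Fos-related genes, FOSL1 and FOSL2, encode proteins without the strong activation domain of FOS. FOSL1, read at chr11:65660098-65660157 (hg19), stood at -1.86 and -2.68 in Control, -2.26 and -2.73 in BT474-Var1 and -2.82 and -2.72 in BT474-Var4 cells. The replicates of Control and BT474-Var1 cells were far apart, and no difference passed, at -0.23 in BT474-Var1 cells (95% interval -1.07 to 0.62, adjusted p = 0.618) and -0.50 in BT474-Var4 cells (-1.35 to 0.34, adjusted p = 0.305). Both intervals reach past a 2-fold fall.

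FOSL2, read at chr2:28637175-28637234 (hg19), stood at 1.18 and 1.08 in Control, 1.46 and 1.39 in BT474-Var1 and 0.96 and 0.78 in BT474-Var4 cells. Control thus lay between the variants. FOSL2 was 1.47-fold lower in BT474-Var4 than BT474-Var1 cells (log2 fold change -0.55, SE 0.09, adjusted p = 0.0101). This call had an adjusted p of 0.0507 without BT474-Var1 replicate A. Against Control, the values were 0.30 in BT474-Var1 cells (95% interval 0.07 to 0.52, adjusted p = 0.0566) and -0.26 in BT474-Var4 cells (-0.48 to -0.03, adjusted p = 0.0944), neither of which passed, though they did in 5 and 2 of the 16 fits.

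All 3 Jun genes exceeded Control in BT474-Var1 cells, and JUN and JUNB were higher in BT474-Var4 cells as well. JUN, the partner of Fos proteins in the classical AP-1 pair, was read at chr1:59246511-59246570 (hg19), with 2.20 and 1.99 in Control, 3.13 and 3.13 in BT474-Var1 and 2.91 and 2.83 in BT474-Var4 cells. Both variants lay above both Control arrays. JUN was 2.04-fold higher in BT474-Var1 cells (log2 fold change 1.03, SE 0.09, adjusted p = 0.00457) and 1.7-fold higher in BT474-Var4 cells (0.77, SE 0.09, adjusted p = 0.00974). The rise in BT474-Var4 cells had an adjusted p of 0.0502 without BT474-Var4 replicate A. Between the variants the difference was -0.26 (95% interval -0.49 to -0.03, adjusted p = 0.0727).

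JUNB, a Jun protein that can dampen the activity of JUN at some promoters, was read at chr19:12902998-12903057 (hg19). It stood at -0.33 and -0.28 in Control, 0.47 and 0.53 in BT474-Var1 and 0.06 and 0.11 in BT474-Var4 cells. The replicates were close together and the groups stood apart, in the same order as for FOS. JUNB was 1.75-fold higher in BT474-Var1 cells (log2 fold change 0.80, SE 0.06, adjusted p = 0.00374) and 1.31-fold higher in BT474-Var4 cells (0.39, SE 0.06, adjusted p = 0.0154). It was 1.33-fold lower in BT474-Var4 than BT474-Var1 cells (-0.42, SE 0.06, adjusted p = 0.00752). The rise in BT474-Var4 cells failed without either Control or either BT474-Var4 array, with adjusted p from 0.0548 to 0.0846.

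JUND, the Jun protein that is usually present in unstimulated cells, was read at chr19:18391371-18391430 (hg19). It stood at 0.68 and 0.58 in Control, 1.33 and 1.38 in BT474-Var1 and 0.55 and 0.46 in BT474-Var4 cells. Its level was thus high on the BT474-Var1 arrays and close to Control on the BT474-Var4 arrays. JUND exceeded Control 1.66-fold in BT474-Var1 cells (0.73 on the log2 scale, SE 0.07, adjusted p = 0.00486). Against Control, the BT474-Var4 value was -0.13 (95% interval -0.30 to 0.04, adjusted p = 0.214). JUND was 1.81-fold lower in BT474-Var4 than BT474-Var1 cells (-0.86, SE 0.07, adjusted p = 0.00236), and of the 7 calls between the variants it was the 1 that passed in all 15 other fits.

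ATF3, a bZIP protein that is induced by many kinds of stress and pairs with Jun proteins, had 4 probes along chromosome 1 (hg19). The probe nearest the end of the gene, A_23_P34915 at chr1:212793856-212793915, stood at 2.84 and 2.74 in Control, 4.13 and 4.07 in BT474-Var1 and 3.71 and 3.73 in BT474-Var4 cells. It had the smallest p of all member probes in the test over the 3 groups (moderated F, unadjusted p = 2.64e-05). It was 2.47-fold higher in BT474-Var1 cells (log2 fold change 1.31, SE 0.06, adjusted p = 0.00279) and 1.9-fold higher in BT474-Var4 cells (0.93, SE 0.06, adjusted p = 0.0041). It was 1.3-fold lower in BT474-Var4 than BT474-Var1 cells (-0.38, SE 0.06, adjusted p = 0.012).

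A second ATF3 probe, A_24_P33895 at chr1:212792837-212792896, stood at -2.27 and -2.20 in Control, -0.82 and -0.88 in BT474-Var1 and -1.28 and -1.16 in BT474-Var4 cells. Another, A_33_P3214105 at chr1:212788502-212788561, stood at -0.36 and -0.24, at 0.80 and 0.81, and at 0.48 and 0.53 in the same groups. Both showed the order Control, BT474-Var4, BT474-Var1 without overlap. Their log2 fold changes were 1.39 and 1.1 in BT474-Var1 cells (adjusted p = 0.0029 and 0.00305), 1.01 and 0.81 in BT474-Var4 cells (adjusted p = 0.00414 and 0.00512), and -0.38 and -0.30 between the variants (adjusted p = 0.0158 and 0.0227). Normexp background correction reduced the A_24_P33895 values to 0.59 and 0.36 against Control, which both still passed. The calls between the variants were lost without BT474-Var1 replicate A and without BT474-Var4 replicate A for all 3 of these probes, with adjusted p from 0.0535 to 0.0898. Without BT474-Var1 replicate B the A_24_P33895 and A_33_P3214105 calls were lost (0.0525 and 0.0862), and without BT474-Var4 replicate B those of A_23_P34915 and A_33_P3214105 (0.0513 and 0.0673).

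The fourth ATF3 probe, A_33_P3214096 at chr1:212792519-212792578, did not follow the other 3. It stood at -0.44 and -0.88 in Control, -0.66 and -0.25 in BT474-Var1 and -0.70 and -0.56 in BT474-Var4 cells, so that all groups overlapped. Its log2 fold changes were 0.20 in BT474-Var1 cells (95% interval -0.35 to 0.76, adjusted p = 0.498) and 0.03 in BT474-Var4 cells (-0.53 to 0.58, adjusted p = 0.932). The interval for BT474-Var1 cells lay below those of the other 3 ATF3 probes, the lowest of which began at 0.94. Where this probe lies relative to the exons of ATF3 is not given in the sources used here.

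Of the other early-response genes, EGR1, a zinc finger transcription factor induced by mitogens through SRF, was read at chr5:137804891-137804950 (hg19). It stood at 1.81 and 1.87 in Control, 2.82 and 2.70 in BT474-Var1 and 2.69 and 2.58 in BT474-Var4 cells. The arrays of both variants lay above both Control arrays and close to each other. EGR1 was 1.89-fold higher in BT474-Var1 cells (log2 fold change 0.92, SE 0.07, adjusted p = 0.00418) and 1.74-fold higher in BT474-Var4 cells (0.80, SE 0.07, adjusted p = 0.0065). The difference between the variants was -0.12, with a 95% interval from -0.32 to 0.07 (adjusted p = 0.233).

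IER3, a stress-induced gene that modulates cell survival, had 2 probes. A_23_P42257, at chr6:30711312-30711371 (hg19), stood at 3.33 and 3.53 in Control, 3.85 and 3.73 in BT474-Var1 and 3.60 and 3.30 in BT474-Var4 cells. A_33_P3423551, at chr6:30711576-30711635, stood at 1.87 and 2.08, at 2.22 and 2.34, and at 2.07 and 2.31. On both probes the BT474-Var1 arrays lay above the Control arrays and the BT474-Var4 arrays overlapped them. No IER3 difference passed, at 0.36 and 0.31 in BT474-Var1 cells (adjusted p = 0.102 and 0.121) and 0.02 and 0.21 in BT474-Var4 cells (adjusted p = 0.929 and 0.26).

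**Figure D2:**
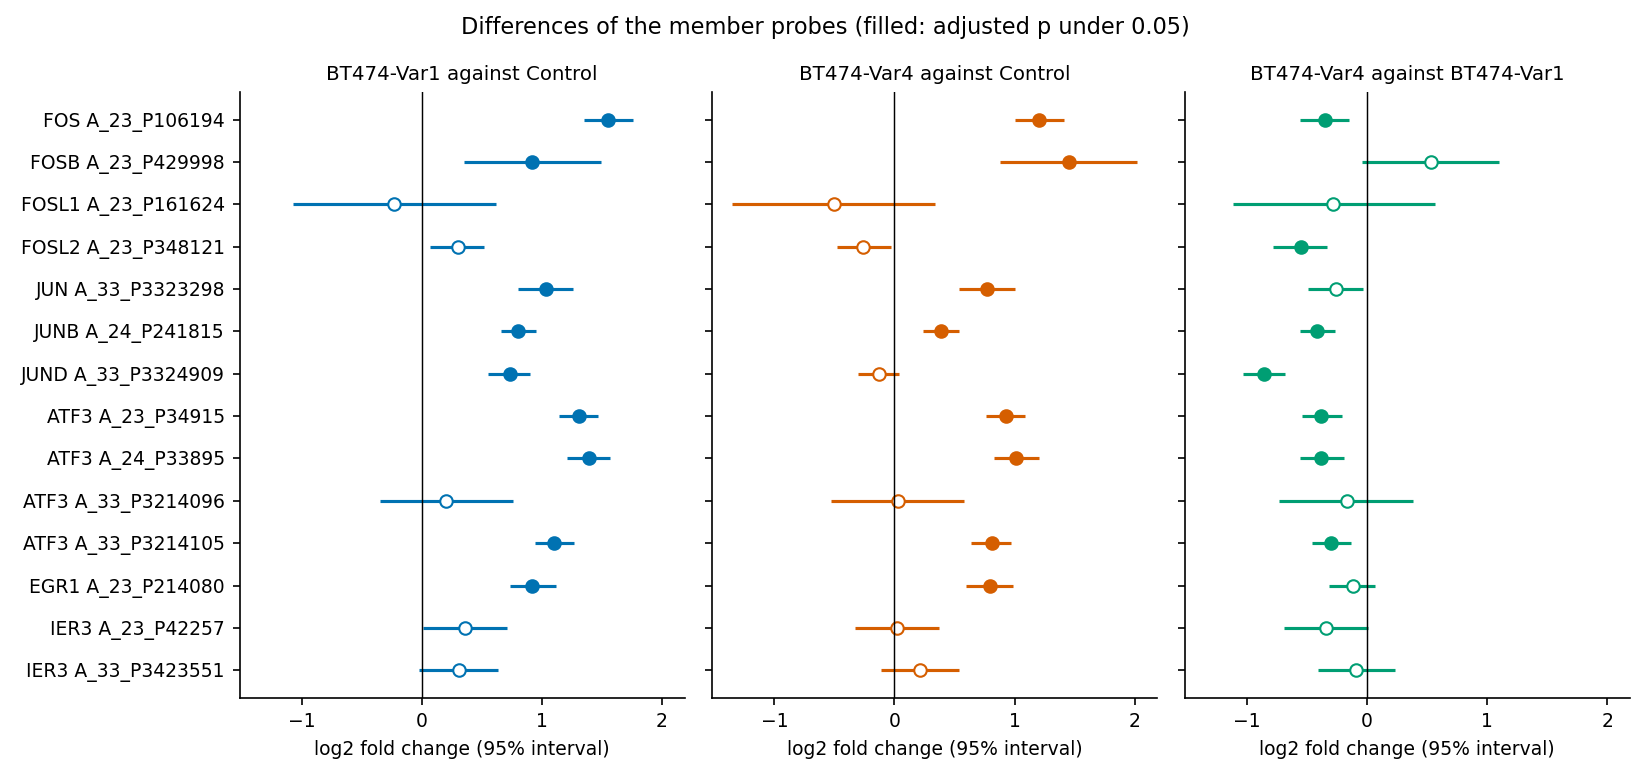
Log2 fold change (horizontal axis) of each member probe in the 3 comparisons, with its 95% interval from limma. Filled points passed at an adjusted p under 0.05. The filled points lie above 0 in both comparisons with Control, as for FOS at 1.55 and 1.20, and below 0 between the variants, as for JUND at -0.86.

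**Figure D3:**
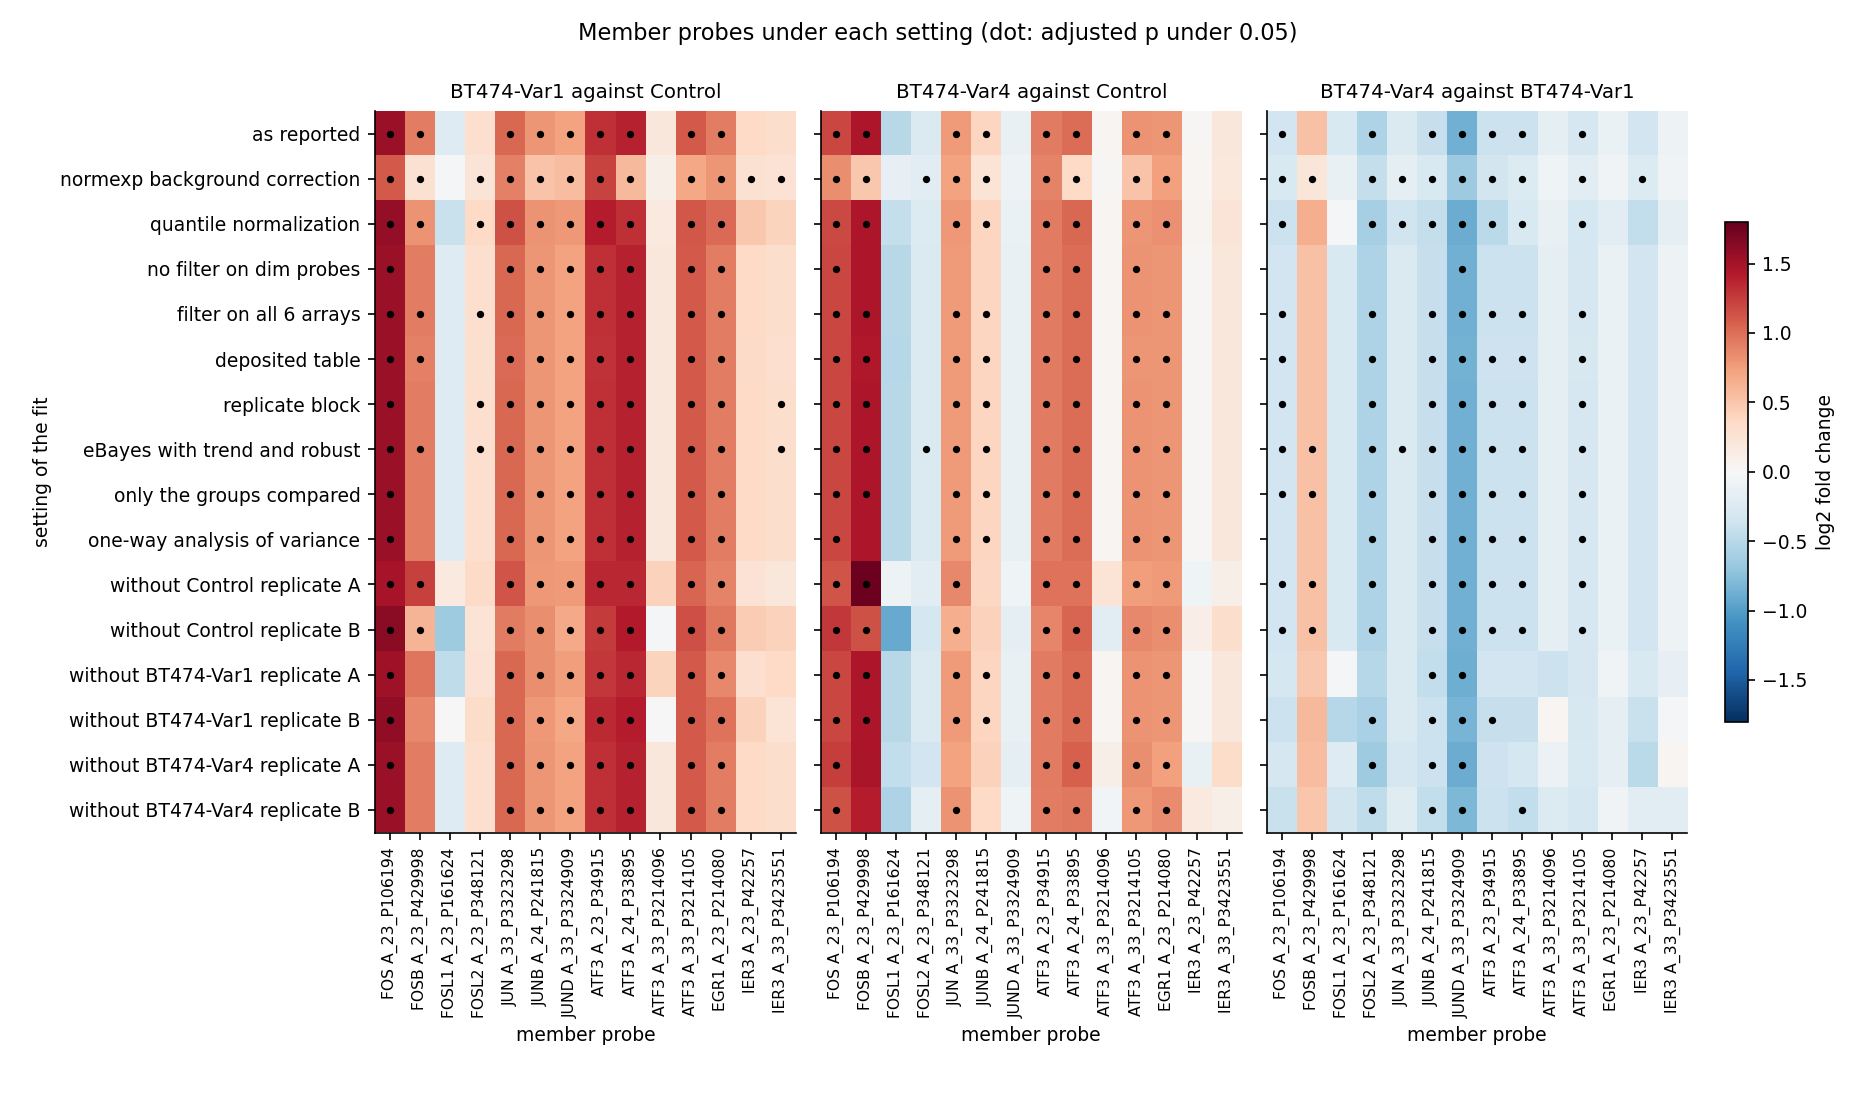
Log2 fold change (color) of each member probe (columns) in each of 16 fits (rows), the reported one first, for the 3 comparisons. A dot marks an adjusted p under 0.05. FOS, JUN, JUNB, JUND, EGR1 and 3 ATF3 probes have a dot in every row of the first panel, and between the variants JUND alone has.

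The same fit was read for 5 lists of genes of the pathway, each gene by its brightest tested probe. The first held 39 immediate early genes outside the members, such as growth factor-induced transcription factors and phosphatases. Of 37 that were tested, 19 were higher and 6 lower in BT474-Var1 cells, 14 were higher and 3 lower in BT474-Var4 cells, and 7 were higher and 12 lower between the variants. The shares called higher and lower over all tested probes were 14.1% and 20.3%, 9.87% and 14.3%, and 20.4% and 20.7%. The median log2 fold changes of the list were 0.23, 0.10 and -0.11. The EGR1 relatives EGR4 (log2 fold change 1.84, adjusted p = 0.00195) and EGR2 (1.47, adjusted p = 0.012) rose most in BT474-Var1 cells, followed by DUSP1, a phosphatase that turns off MAP kinases (1.40, adjusted p = 0.00233). EGR4 stood at -1.57 and -1.63 in Control, 0.28 and 0.21 in BT474-Var1 and -0.92 and -0.96 in BT474-Var4 cells, which is the order seen for FOS. The largest falls in BT474-Var1 cells were those of the kinase SGK1 (-1.03), SIK1 (-0.51) and ARC (-0.48).

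In BT474-Var4 cells the largest rises of the list were those of the nuclear receptor NR4A3 (1.60, adjusted p = 0.0218), CTGF, a matricellular protein (1.42), and the phosphatase DUSP2 (1.22, adjusted p = 0.00373). CTGF was well above background on only 1 of the 2 Control arrays and entered the test through the variants alone, so no p-value is given for it. Of the 36 genes bright in every group, 13 were higher and 3 lower in BT474-Var4 cells against Control. Between the variants 6 were higher and 12 lower. The mRNA-decay factors ZFP36L2 (-0.65) and ZFP36L1 (-0.33) and IER5L (-0.29) fell. Between the variants, EGR4 (-1.18), DUSP1 (-0.95) and the stress gene GADD45B (-0.69) were lower, and CTGF (1.28), IER5 (1.05) and SGK1 (0.67) higher, in BT474-Var4 cells. The list's counts for BT474-Var4 against Control depended on single arrays: without Control replicate A or B 5 or 8 genes passed, and without BT474-Var4 replicate A or B 7 in each case. In BT474-Var1 against Control, 13, 14 and 16 passed without Control replicate A, Control replicate B or BT474-Var1 replicate B.

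The next list, called SRF and its partners, held 11 factors that regulate such genes. It includes NAB1 and NAB2, which repress through EGR proteins and do not drive these genes. Of 10 tested, 2 were higher and 1 lower in BT474-Var1 cells, 1 higher and 1 lower in BT474-Var4 cells, and 1 higher and 3 lower between the variants, which is 3, 2 and 4 of 10 genes beside 34.4%, 24.2% and 41.2% of all tested probes. NAB2, a corepressor of EGR proteins, was higher in both variants, with log2 fold changes of 0.56 and 0.43 (adjusted p = 0.0064 and 0.0152), and its relative NAB1 was lower in BT474-Var4 than in Control (-0.40) and BT474-Var1 cells (-0.56). The SRF coactivator MKL1 was higher in BT474-Var1 cells (0.49) and lower in BT474-Var4 than BT474-Var1 cells (-0.32). The coactivator EP300 was lower in BT474-Var1 cells (-0.30) and higher in BT474-Var4 cells when the variants were compared (0.20). SRF itself was lower in BT474-Var4 than BT474-Var1 cells (-0.39, adjusted p = 0.0353). The list's medians were 0.08, 0.00 and -0.10, and after quantile normalization the split between the variants was 0 higher and 3 lower. Without single arrays the counts fell to as few as 0 in BT474-Var4 against Control (without either Control array or BT474-Var4 replicate A) and to 2 between the variants (without any array but BT474-Var4 replicate B).

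Other bZIP factors, relatives of the AP-1 subunits that could share partners or sites with them, did not lean one way in BT474-Var1 cells, with 6 of 33 tested genes higher and 8 lower after the 75th percentile shift and 9 higher and 6 lower after quantile normalization. In BT474-Var4 cells 12 were higher and 2 lower, and between the variants 13 were higher and 6 lower. After the 75th percentile shift, the shares of all tested probes were 14.1% higher and 20.3% lower in BT474-Var1 cells. They were 9.87% and 14.3% in BT474-Var4 cells, and 20.4% and 20.7% between the variants. The medians were -0.01, 0.11 and 0.13. In BT474-Var1 cells DBP, a clock-controlled factor (1.42), its relative HLF (1.38) and CREB5, which can pair with JUN (1.03), rose most, and NFE2L2, the oxidative stress regulator (-0.69), BATF, which pairs with Jun proteins (-0.57), and CEBPB (-0.51) fell most. In BT474-Var4 cells the repressor BACH2 (1.68), CREB5 (1.18) and BATF3, a Jun partner (1.12), rose most, and XBP1, a factor of the unfolded protein response (-0.81), and ATF5 (-0.50) fell. Between the variants, BACH2 (1.5), BATF (1.09) and BATF3 (0.80) were higher and XBP1 (-0.91), DBP (-0.86) and CEBPA (-0.39) lower in BT474-Var4 cells. BATF3 was well above background on 1 of 2 Control and 1 of 2 BT474-Var1 arrays and entered the test through BT474-Var4 cells, and NFE2L2 was so on 1 of 2 BT474-Var1 arrays. Leaving out single arrays brought the counts to between 8 and 9 without any array of Control or BT474-Var1 cells in BT474-Var1 against Control, 6 to 8 without any array of Control or BT474-Var4 cells in BT474-Var4 against Control, and 10 to 12 without any array of the variants between them.

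Known AP-1 targets were a list of 38 genes, 29 of them tested, for secreted factors, proteases, laminins and others with AP-1 sites. In BT474-Var1 cells 8 were higher and 7 lower (9 and 5 after quantile normalization), in BT474-Var4 cells 11 were higher and 1 lower, and between the variants 16 were higher and 2 lower. Of the 29, 22 reached well above background in every group on both its arrays, and the other 7 entered the test through the groups where they were bright, with IL6, CXCL8, MMP1 and MMP13 doing so through BT474-Var4 cells alone. The counts for the 22 were 5 higher and 7 lower, 8 higher and 1 lower, and 13 higher and 1 lower. Beside them, 14.1% of all tested probes were higher and 20.3% lower, then 9.87% and 14.3%, then 20.4% and 20.7%. For all 29, the medians were 0.12, 0.37 and 0.47, and with genes below background in a group placed at their bound they were 0.12, 0.32 and 0.47. These medians include the 7 genes that entered through some groups only, so the filter itself can move them. No median was taken of the 22 alone. Without Control replicate A or B, 7 or 8 genes passed in BT474-Var1 against Control. The 7 member probes that passed between the variants were lower in BT474-Var4 cells. CCL2, a chemokine that attracts monocytes, stood at -3.19 and -3.14 in Control, 1.31 and 1.32 in BT474-Var1 and 2.15 and 2.15 in BT474-Var4 cells. Its differences from Control were 22.3-fold (log2 fold change 4.48, SE 0.05, adjusted p = 0.000499) and 39.9-fold (5.32, SE 0.05, adjusted p = 0.00023).

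VEGFA, the angiogenic growth factor, stood at 2.10 and 2.03 in Control, 4.02 and 3.93 in BT474-Var1 and 2.06 and 2.08 in BT474-Var4 cells. It exceeded Control 3.77-fold in BT474-Var1 cells (adjusted p = 0.00209) and 3.74-fold lower in BT474-Var4 than BT474-Var1 cells (adjusted p = 0.00118). EREG, an EGF receptor ligand, was too dim in Control cells to be well above background. The mean of the BT474-Var1 arrays exceeded them at least 4.02-fold. EREG entered the test through the variants alone, so no p-value is given for it. The 2 BT474-Var1 arrays lay far apart, at -3.28 and -1.47 (SE of the difference 0.66). The intermediate filament gene VIM (-1.03), the integrin ITGA2 (-0.86) and the DNA methyltransferase DNMT1 (-0.54) fell most in BT474-Var1 cells.

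CXCL8 and MMP1 were well above background only in BT474-Var4 cells. CXCL8, MMP1 and IL6 entered the test through BT474-Var4 cells alone, the group where they were higher, so no p-value is given for them. The chemokine CXCL8 was dim in both other groups, and BT474-Var4 cells exceeded Control at least 4.3-fold and BT474-Var1 cells at least 3.36-fold. One of the 8 genes counted as higher in BT474-Var1 cells was CXCL8, for which no fold is given because both groups were below background. The cytokine IL6 had a fitted fold of 7.21 over Control in BT474-Var4 cells (SE 0.37 on the log2 scale). It was not well above background on either Control array. Its signal there was brighter than the dimmest signal so marked, so no value was raised and the fold is not a bound. IL6 differed from BT474-Var1 cells, where 1 of 2 arrays was above background, by 2.73. The collagenase MMP1 exceeded BT474-Var1 at least 3.11-fold in BT474-Var4 cells. TGFB1, a growth-inhibitory cytokine, was not well above background in BT474-Var4 cells and was at least 4.07-fold lower there than in BT474-Var1 cells. TGFB1 entered the test through Control and BT474-Var1 cells alone, so no p-value is given for it. DNMT1 was the 1 gene of the list that fell in BT474-Var4 cells (-0.32, adjusted p = 0.0272).

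The last list held 20 targets of ATF4 and CHOP, the stress factors that can induce ATF3. All 20 were tested, with 6 higher and 9 lower in BT474-Var1 cells and 8 higher and 3 lower in BT474-Var4 cells. Between the variants 12 were higher and 3 lower. Of all tested probes, 14.1% were higher and 20.3% lower, 9.87% and 14.3%, and 20.4% and 20.7% in the same order. The list's medians were -0.21, 0.12 and 0.26. VEGFA (1.91), the mTOR inhibitor DDIT4 (1.70) and the lipoprotein receptor VLDLR (1.45) rose most in BT474-Var1 cells, and the cystine transporter SLC7A11 (-1.15), the glutathione-degrading enzyme CHAC1 (-0.80) and the serine synthesis enzyme PSAT1 (-0.71) fell most. In BT474-Var4 cells PPP1R15A, which restores translation after stress (1.09), the stress cytokine GDF15 (1.03) and DDIT3, the gene of CHOP itself (0.81), rose, and ATF5 (-0.50), PSAT1 (-0.41) and the asparagine synthetase ASNS (-0.22) fell. Between the variants, SLC7A11 (1.51), SESN2 (1.05) and CHAC1 (1.03) were higher and VEGFA (-1.90), VLDLR (-1.39) and DDIT4 (-1.24) lower in BT474-Var4 cells. Without Control replicate A or B, 4 or 3 genes passed in BT474-Var4 against Control, and without BT474-Var4 replicate A or B 7 or 6. ATF5, CEBPB, DDIT3, PPP1R15A and VEGFA each stand in 2 of the 5 lists. Calls in these lists stood at adjusted p of at most 0.044 for the genes named, against the shares over all tested probes given above.

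**Figure D4:**
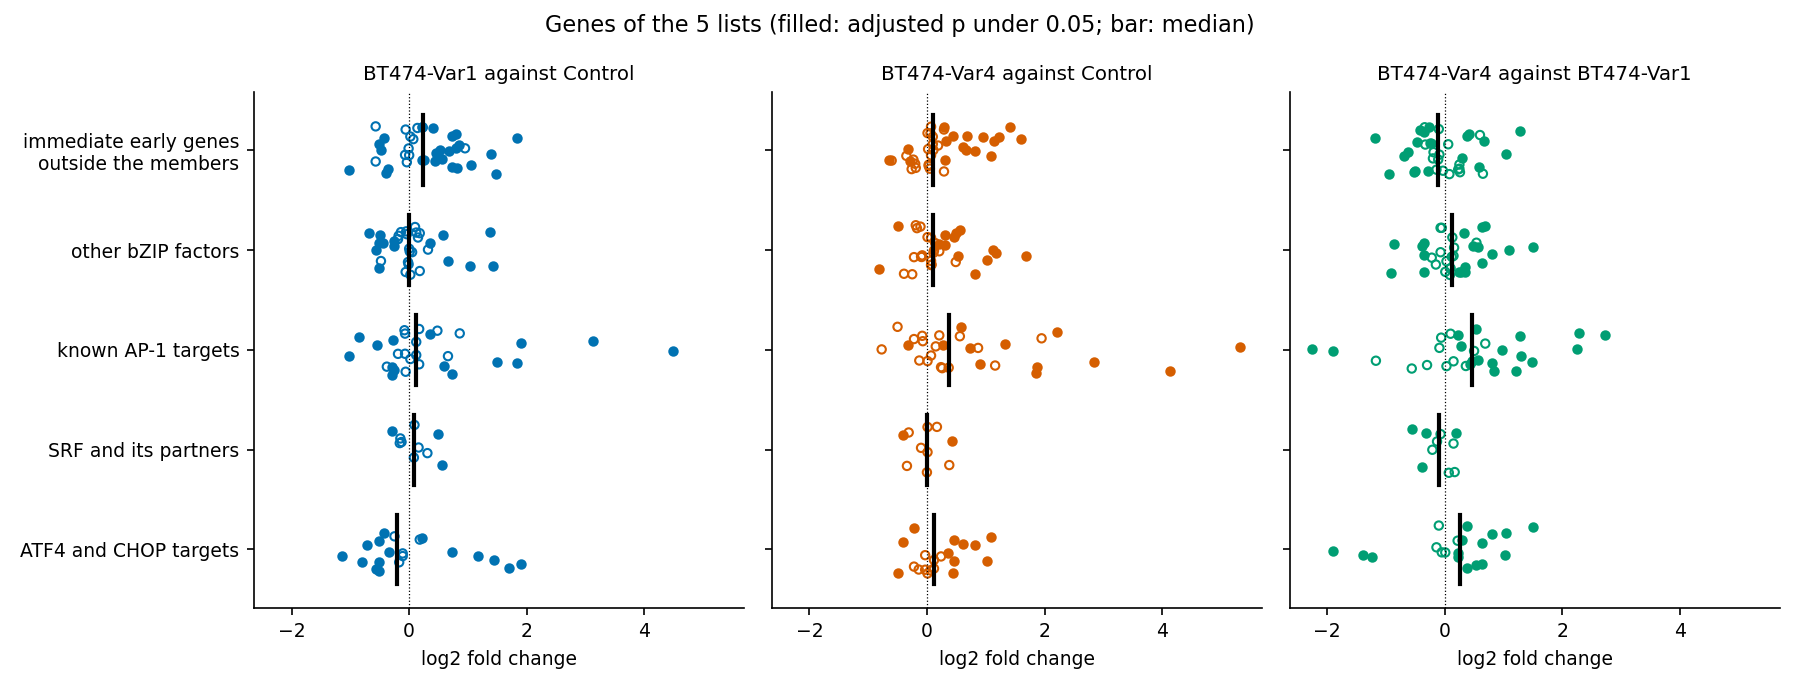
Log2 fold change (horizontal axis) of the tested genes of the 5 lists in the 3 comparisons, 1 point per gene, filled at an adjusted p under 0.05, with a bar at the list's median. Genes below background in a group are drawn at their fitted value. The points of a list are spread vertically only so that they can be seen. The bars of the known AP-1 targets lie at 0.12, 0.37 and 0.47, and CCL2 is the point farthest to the right in both comparisons with Control, at 4.48 and 5.32. Those bars include genes that entered the test only through the groups where they were bright.

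For the ATF3 probe A_23_P34915, whose p over the 3 groups was the smallest among the members, the 5 probes of other genes with the most similar values over the 6 arrays were those of TOM1 (Pearson r = 0.9998), NFKB2 (0.9992), IFITM10 (0.9991), CCT6B (0.9982) and TMEM139 (0.9979). NFKB2, a subunit of NF-kB, stood at -2.05 and -2.09 in Control, -0.71 and -0.83 in BT474-Var1 and -1.15 and -1.12 in BT474-Var4 cells. TOM1, an endosomal trafficking protein, stood at 3.79 and 3.73, at 4.41 and 4.37, and at 4.20 and 4.22. These coefficients describe 6 arrays that fall into 3 groups and were the highest among tested probes of other named genes.

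NR2F1-AS1, the transfected transcript, had 4 probes that differ in which variant they read. All 4 entered the test through arrays of a variant and not of Control, so no p-value is given for them. A_19_P00320140 was well above background in BT474-Var1 cells alone, where it exceeded Control at least 15.1-fold. A_22_P00006111 was well above background on both arrays of each variant and on 1 of 2 Control arrays, with log2 fold changes against Control of 3.36 and 7.98 for variants 1 and 4. A_22_P00006112 was so on both BT474-Var1 arrays, 1 of 2 Control arrays and 0 of 2 BT474-Var4 arrays, with a log2 fold change of 3.75 in BT474-Var1 cells. A_24_P51080 stood at 1.67 and 1.5 on the BT474-Var4 arrays, where both were well above background, against 1 of 2 on the Control arrays and 0 of 2 on the BT474-Var1 arrays. All 9 luminal epithelial markers were well above background on all 6 arrays, ESR1, GATA3 and ERBB2 among them. So were 0 of 3 basal, 2 of 5 fibroblast, 2 of 3 endothelial and 2 of 5 leukocyte markers. COL1A2, COL3A1 and LUM for fibroblasts, KRT5 for basal cells and MS4A1 for B cells were not well above background on any array, and CD68 was not found on the array by name. The summed linear level of the fibroblast markers was 3.11 to 3.13 times the 75th percentile in Control, 3.65 to 3.75 in BT474-Var1 and 5.23 to 5.32 in BT474-Var4 cells, and of its 2 markers above background COL1A1 had log2 fold changes of 0.34 and 1.03 and PDGFRB of -0.02 and -0.32 in BT474-Var1 and BT474-Var4 cells. The luminal sum was 2130 to 2160 in Control, 2670 to 2710 in BT474-Var1 and 2080 to 2090 in BT474-Var4 cells. These sums add probes of unlike brightness and follow the brightest, which for the luminal list is KRT19 (0.62 in BT474-Var1 cells), while EPCAM (-0.66), FOXA1 (-0.50) and CDH1 (-0.47) lay below Control there. The basal sum was 0.0847 to 0.109 in Control, 0.136 to 0.183 in BT474-Var1 and 0.116 to 0.137 in BT474-Var4 cells, with KRT14 at 1.35 and 1.02 in the variants. KRT14 was well above background on 4 of the 6 arrays, with a lowest value of -4.48, and TP63 on 1. The basal sum thus rests on signal near background. The endothelial sum was 2.58 to 2.78, 1.77 to 1.89 and 2.43 to 2.57 in the same order, with VWF at -0.87 in BT474-Var1 cells, and the leukocyte sum was 1.2 to 1.23, 1.27 to 1.31 and 1.12 to 1.2. Their part in the differences of the members was not tested. In bulk RNA, fewer cells with a transcript and less of it per cell cannot be told apart.

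All 6 arrays lay on 1 slide with 1 scan. The Control arrays lay in row 1, columns 1 and 2, and the BT474-Var4 arrays in row 1, columns 3 and 4. The BT474-Var1 arrays lay in row 2, columns 3 and 4. Position on the slide and group therefore cannot be told apart in any of the 3 comparisons. Between 47.6% and 57.5% of probes per array were marked well above background, and replicate arrays had an SD of 0.20 to 0.25 log2 units across tested probes.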

How the data were processed

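The authors labeled 100 ng of RNA with Cy3, hybridized it to one-color Agilent 8x60K arrays, quantified spots with Feature Extraction 11.5.1.1 and shifted each array to its 75th percentile in GeneSpring. The deposited scanner files hold spot intensity on a linear scale, background-subtracted and detrended within the array, with probe positions on hg19. The deposited value table holds log2 values after the authors' shift, and it was used as an alternative, since its values differed from those computed here by a median of at most 0.00716 per array. Outlier spots (63 to 128 per array) were left out, spots of a probe averaged, log2 taken and the 75th percentile of non-control probes subtracted. The test covered 31857 probes, those that some group had well above background on both its arrays, and they were fitted with limma 3.58.1 (R 4.3.3), a mean per group over all 6 arrays, and p-values were adjusted by Benjamini-Hochberg over them. Residual degrees of freedom were 3 and prior ones 1.53. Precision is limited by the number of arrays. Intervals are 95%. The fitting script was tested on simulated data. For a group below background, any value under the dimmest well-above-background signal of its array, the floor, was raised to it. The fold is given as a bound where a value was raised.

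Named were all member probes, the 3 largest rises and falls that passed in each list and comparison, and the 5 probes most like the member with the smallest F-test p. Members and lists were chosen with earlier results of these data known. The alternatives were normexp with an offset of 50, quantile normalization, 2 other filters, the deposited table, a replicate block, eBayes with trend and robust estimation, the methods' one-way analysis of variance, a fit to the arrays of each comparison alone, a 2-fold rule, every tested probe of a list gene and each array left out. Replicate letters did not pair samples (correlations of deviations -0.01, 0.05 and -0.02).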

Additional observations from a re-analysis of the deposited data

How the results depend on the processing

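The count of member probes that passed was 9 in BT474-Var1 against Control, 8 in BT474-Var4 against Control and 7 between the variants. With no filter on dim probes, which brings all dim probes into the shared estimate of the spread, 4 passed in BT474-Var4 against Control and 1 between the variants (8 in BT474-Var1 against Control), and the share called over all probes dropped from 34.4%, 24.2% and 41.2% to 4.59%, 1.24% and 8.78%. Requiring a 2-fold change as well left 5, 3 and 0. With each array left out in turn the counts ran from 8 to 9, from 5 to 8 and from 2 to 8. The lowest of them came without BT474-Var4 replicate A in BT474-Var4 against Control (5) and, between the variants, without BT474-Var1 replicate A (2), BT474-Var4 replicate A (3), BT474-Var1 replicate B (4) and BT474-Var4 replicate B (4). With the replicate letter as a block 10, 8 and 7 passed, and FOSB in BT474-Var1 cells (adjusted p = 0.0583) was the 1 call lost. Over the 15 other fits, 8 of 9, 4 of 8 and 1 of 7 calls held in each. Not all of these fits are distinct. In each comparison, leaving out either array of the third group is the same fit as the groups compared alone. The tallies over fits count it more than once. Of the single values under the alternatives, 558 kept direction and call, 42 lost the call, 20 gained it and 10 changed sign, all 10 where no call was made. These were, with the range over the left-out arrays, FOSL1 in BT474-Var1 cells (-0.64 to 0.18, with 0.18 without Control replicate A and 0.01 without BT474-Var1 replicate B), the ATF3 probe A_33_P3214096 (in BT474-Var1 cells -0.02 to 0.42, with -0.02 without Control replicate B and 0.00 without BT474-Var1 replicate B, in BT474-Var4 cells -0.19 to 0.25, with -0.19 and -0.05 without Control replicate B and BT474-Var4 replicate B, and between the variants -0.38 to 0.03, with 0.03 without BT474-Var1 replicate B), the IER3 probe A_23_P42257 in BT474-Var4 cells (-0.13 to 0.17, with -0.08 without Control replicate A and -0.13 without BT474-Var4 replicate A) and the IER3 probe A_33_P3423551 between the variants (-0.21 to 0.03, with 0.03 without BT474-Var4 replicate A). Of the lists, with no filter on dim probes and in the 3 comparisons, 11, 3 and 7 of the immediate early genes passed (25, 17 and 19 as reported), 4, 5 and 7 of the bZIP factors (14, 14 and 19), 5 and 7 of the AP-1 targets against Control (15 and 12), 9 and 3 of the ATF4 and CHOP targets against Control (15 and 11) and 0 of the SRF list in each (3, 2 and 4). The 2-fold rule left 5, 5 and 3, then 3, 4 and 2, then 6, 7 and 9 (18 between the variants as reported), then 5, 2 and 6 (15), then 0 in each. With trend and robust estimation 20 AP-1 targets passed in BT474-Var4 against Control. The SRF list gave 5, 5 and 7 with normexp, 5 and 7 in the first and last comparison with trend and robust estimation, 6 and 9 there with every tested probe, and 1 and 2 in the last 2 with a replicate block or with the groups compared alone. Where an alternative other than a left-out array or the filter changed a call, the cause was not tested.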
